A study of Mus musculus with 6 samples.

Results

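The interferon-stimulated genes described here are 38 mouse genes of the type I interferon response, taken by gene symbol from a list that leaves out chemokines and major histocompatibility complex (MHC) genes. All 38 were found among the 55487 genes of the deposited table, and all 38 passed the filter on low counts that left 14663 genes to test. They were measured by RNA-seq in RM-1 cells, an established mouse prostate cancer line, in 2 groups of 3 libraries. Cells of the Bhlhe22 group carried a lentivirus that overexpresses Bhlhe22, a basic helix-loop-helix transcription factor, and cells of the vector group carried a blank lentivirus. The labels name no other allele or agent, and no interferon treatment. The labels do not name the promoter of the lentivirus, say whether the cells were a clone or a pool, or say whether the replicates were separate cultures. The p-values therefore measure the spread between these libraries, which may be technical. The design compares gene expression with and without Bhlhe22 overexpression.

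Interferons are secreted proteins that cells make when their sensors find foreign or misplaced nucleic acid. Type I interferons bind a receptor made of Ifnar1 and Ifnar2, whose kinases Jak1 and Tyk2 phosphorylate STAT proteins such as Stat2. With Irf9, Stat2 is part of the factor ISGF3, which binds the interferon-stimulated response element (ISRE) in promoters. A further element of interferon-induced promoters is the gamma-activated site (GAS). The induced genes encode antiviral enzymes, GTPases, nucleic acid sensors and regulators of the pathway itself. Many of them are also transcribed at a low level without added interferon, and tumour cell lines can differ widely in that level.

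The promoters are shown first because many of them, though not all, held the letters of the ISRE. At least 1 window of 250 bases before to 50 bases after a start was available from RefSeq (GRCm38.p6) for 30 of the 38 genes, 37 windows in all. An ISRE was taken as GAAA, any 2 bases and GAAA again, on either strand (TTTC, any 2 bases and TTTC when read on the other), and overlapping matches were joined. At least 1 window held it in 18 of the 30 genes (60.0%), against 1079 of all 27025 genes with a window (3.99%). Counted by window, it was in 19 of 37 (51.4%), against 1131 of 32851 (3.44%). The stretches below are written 5′ to 3′ on the strand of the gene, with ISRE matches in capitals and 20 flanking bases on each side. Gbp3, Igtp and Bst2 were lower in the Bhlhe22 libraries, whereas Isg15, Rsad2, Ifit3 and Ifit3b did not pass the test.
Gbp3: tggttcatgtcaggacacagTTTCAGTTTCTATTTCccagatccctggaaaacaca
Igtp: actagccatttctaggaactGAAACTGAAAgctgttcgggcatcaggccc
Bst2: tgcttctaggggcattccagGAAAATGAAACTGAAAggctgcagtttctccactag
Isg15: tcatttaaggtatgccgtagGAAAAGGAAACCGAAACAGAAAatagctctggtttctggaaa
Rsad2: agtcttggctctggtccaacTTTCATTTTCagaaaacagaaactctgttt
Ifit3: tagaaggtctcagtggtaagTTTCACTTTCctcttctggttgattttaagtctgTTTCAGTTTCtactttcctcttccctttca
Ifit3b: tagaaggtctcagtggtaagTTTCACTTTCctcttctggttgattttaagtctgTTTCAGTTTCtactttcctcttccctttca

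The Gbp3 stretch lies at chr3:142559979-142560034 on the plus strand and the Igtp stretch at chr11:58199502-58199551 on the plus strand. The Bst2 stretch lies at chr8:71537567-71537622, the Isg15 stretch at chr4:156200855-156200916 and the Rsad2 stretch at chr12:26456543-26456592, all on the minus strand. The Ifit3 stretch at chr19:34583353-34583436 and the Ifit3b stretch at chr19:34607749-34607832, both on the plus strand, have 84 of 84 bases in common. Matches of this kind are a description of the letters and do not show a bound site. The ISRE was found in both kinds of gene. A window held it in 4 of the 6 genes with a window that were lower (66.7%), in 14 of the 23 that did not pass the test (60.9%), and not in Ifi44, which was higher. A GAS, taken as TTC, any 3 bases and GAA on either strand, was in a window of 9 of the 30 genes, against 2582 of the 27025 genes (9.55%).

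Library totals ran from 15464709 to 25129552 counts. No vector library held a count of the targeted gene (0 in each), and Bhlhe22 replicates 1 to 3 held it at 572, 764 and 717 CPM (counts per 1000000 counts of a library, with library sizes scaled by TMM). Of markers of other cells, 10 of 15 leukocyte genes, among them Cd3e, Itgam and Lyz2, were at 0 in every library. The summed leukocyte markers, nearly all Cd68, were 38.1 to 43.3 CPM in vector libraries and 44.7 to 52.7 CPM in Bhlhe22 libraries. Summed endothelial markers were 3.74 to 4.86 and 3.15 to 4.18 CPM, and summed fibroblast markers 25.3 to 26.2 and 23.5 to 35.5 CPM, in vector and Bhlhe22 libraries. Summed epithelial markers, nearly all Krt8 and Krt18, were 1380 to 1450 CPM and 1130 to 1340 CPM. Whether these marker levels had a part in the results was not tested. The prostate markers Hoxb13 and Pbsn were at 0 in every library, so these defining markers of the labelled tissue were absent. In bulk RNA, fewer cells of a type and less RNA per cell cannot be told apart.

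Bhlhe22 replicate 1 stood apart in these genes. In all 38 it was the highest (20 genes) or the lowest (18 genes) of the 3 Bhlhe22 libraries and never between the other 2, whereas among all genes it lay between them in 16.4%. The genes in which it was highest had a median merged exon length of 2653 bases, and those in which it was lowest had one of 5618 bases. Over the 38 genes, Spearman's rho between exon length and the deviation of a library from its group mean was -0.67 for Bhlhe22 replicate 1, against 0.74 and 0.59 for replicates 2 and 3. The corresponding values for vector replicates 1, 2 and 3 were -0.37, 0.55 and -0.29. These values are descriptive, since genes of a library share its depth and preparation and deviations within a group are tied to each other. Over 14637 genes with a length, rho for Bhlhe22 replicate 1 was -0.47. For the 38 genes, calls that changed without this library, or with a length trend removed from each library, are therefore also given below. Counts of the other gene lists are not given separately for the fit without this library. Single genes of the nucleic acid sensing list described below also set it apart. Tlr4 was at 4.53 CPM in Bhlhe22 replicate 1, against 56.4 and 60.3 CPM in replicates 2 and 3. Trim25 was at 57.8 CPM, against 203 and 210 CPM. Traf3 was instead higher in replicate 1, at 32.5 CPM against 17.5 and 16.5 CPM. The cause of these differences was not tested.

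**Figure D1:**
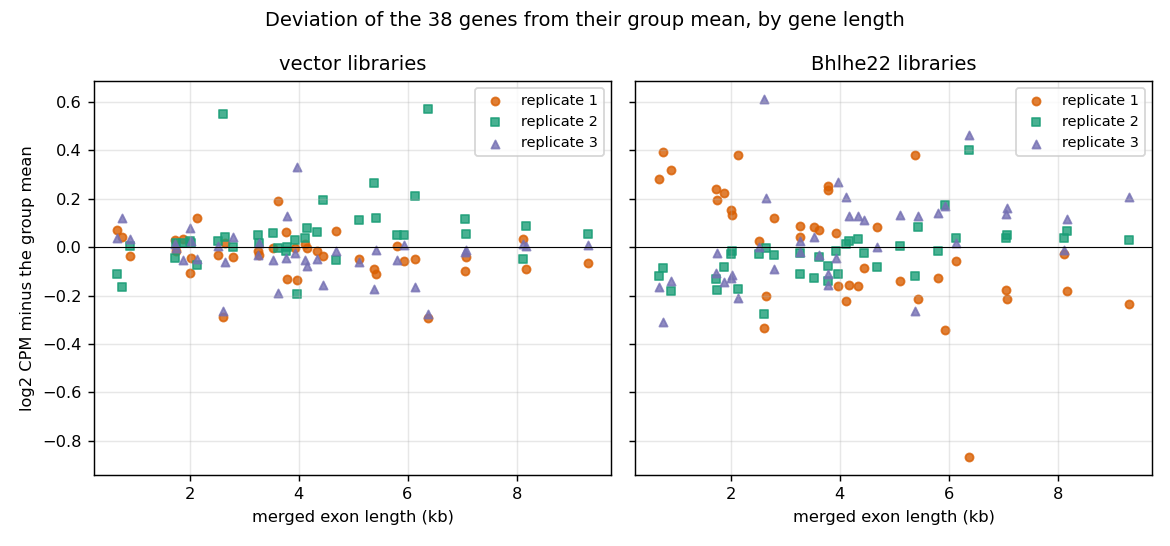
Log2 CPM minus the group mean (vertical axis) against merged exon length (kb, horizontal axis) for the 38 interferon-stimulated genes, with the vector libraries in the left panel, the Bhlhe22 libraries in the right panel and 1 symbol per replicate. Bhlhe22 replicate 1 lies mostly above 0 for short genes and below 0 for long ones (rho -0.67), opposite to Bhlhe22 replicates 2 and 3 (0.74 and 0.59).

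Transcripts of all 38 genes were present in the vector cells. Levels between genes are compared as CPM per kilobase of merged exon length (GENCODE M21), because the length behind the deposited FPKM counted overlapping exons more than once. That length equalled the sum over distinct exons, within 0.5 bases, in 37 of the 38 genes, and it was 2.71 times the merged length for Irf7. On the scale per kilobase the median gene was at 18.7, with 18 genes over 20 and 2 under 5. The highest was Ifitm3, which blocks virus entry at endosomes, at 922.7 ± 60.68 (SD, n = 3), followed by Bst2 at 227.4 ± 5.334 and Isg15 at 154.1 ± 15.37. The lowest were Mx2 at 2.425 and Mx1 at 1.143 ± 0.1046, both listed in the table as polymorphic pseudogenes. The Mx proteins are GTPases that trap virus capsids.

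In Bhlhe22 cells 8 of the 38 genes were lower (21.1%), 1 was higher (2.63%) and 29 did not pass the test, at a Benjamini-Hochberg adjusted p under 0.05 in edgeR's quasi-likelihood test over all 14663 genes. The same test called 19.6% of all genes in either direction, 9.28% lower and 10.4% higher. The genes that fell were Dhx58, Oas2, Gbp3, Igtp, Irgm1, Bst2, Cmpk2 and Samd9l, and the gene that rose was Ifi44. The differences were small, from -0.59 (Oas2) to 0.47 (Ifi44) in log2 CPM, and none reached a 2-fold change. The median log2 fold change was -0.175, with 28 genes below 0 and 10 above, while the median over all genes was 0.01 with 48.7% below 0. With other scalings of the libraries, 28 to 30 of the 38 were below 0. The 3 Bhlhe22 libraries were all lower than the 3 vector libraries in 15 genes, and all higher in 2 genes. Among all genes such separation was seen in 20% downward and 20.8% upward. The remaining 21 genes had overlapping groups.

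**Figure D2:**
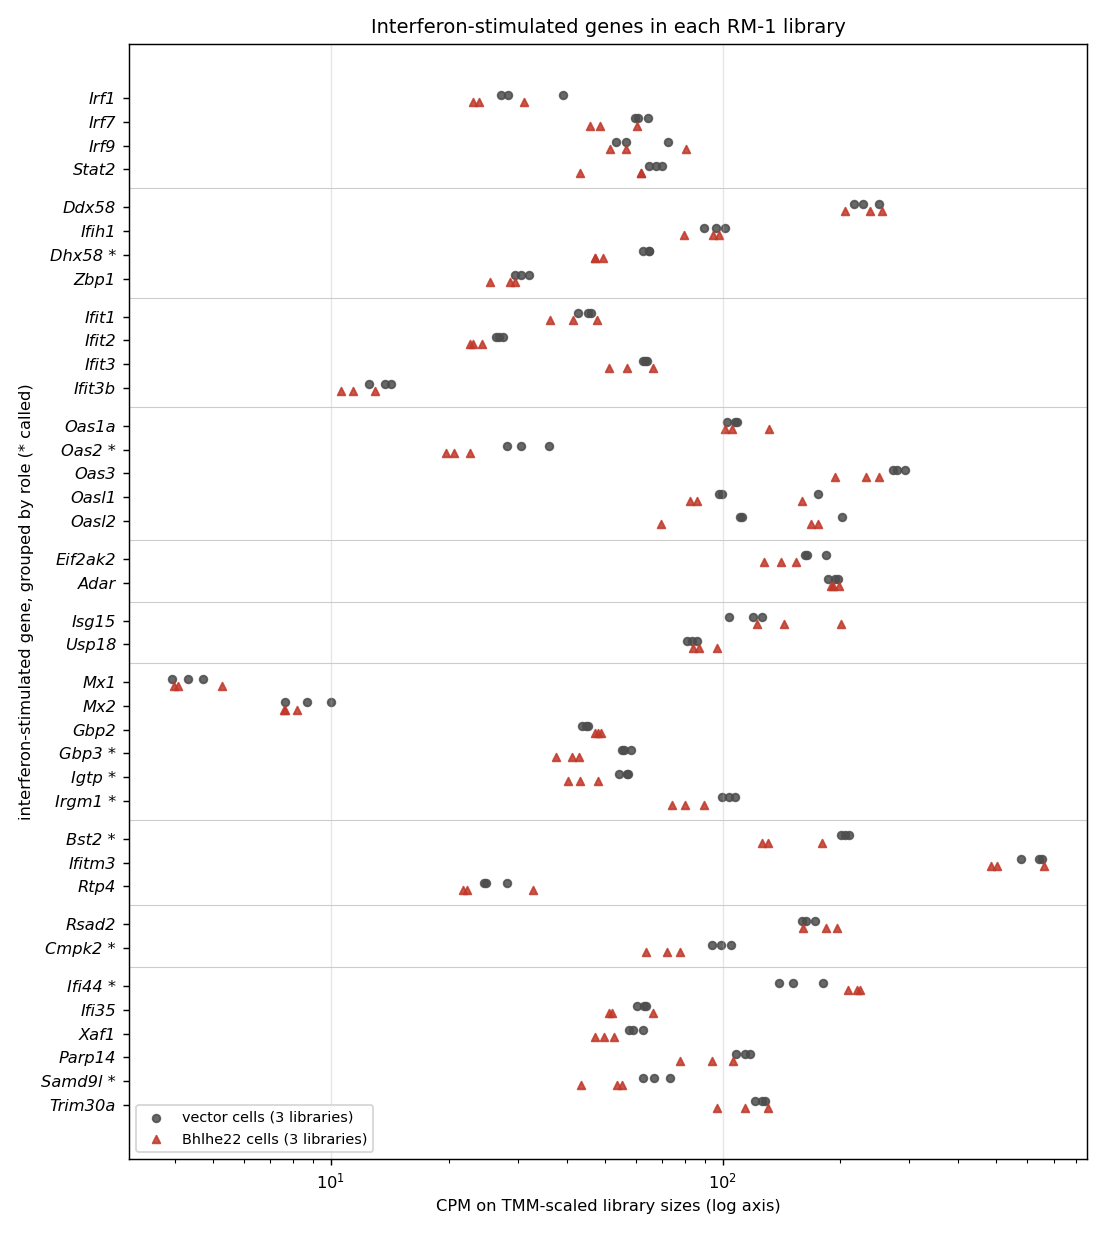
CPM on TMM-scaled library sizes (horizontal log axis) of the 38 interferon-stimulated genes, grouped by role, with circles for the 3 vector and triangles for the 3 Bhlhe22 libraries and an asterisk at genes that passed the test. The symbols of the 9 marked genes do not overlap between groups, and of these Ifi44 is the gene with higher Bhlhe22 libraries.

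**Figure D3:**
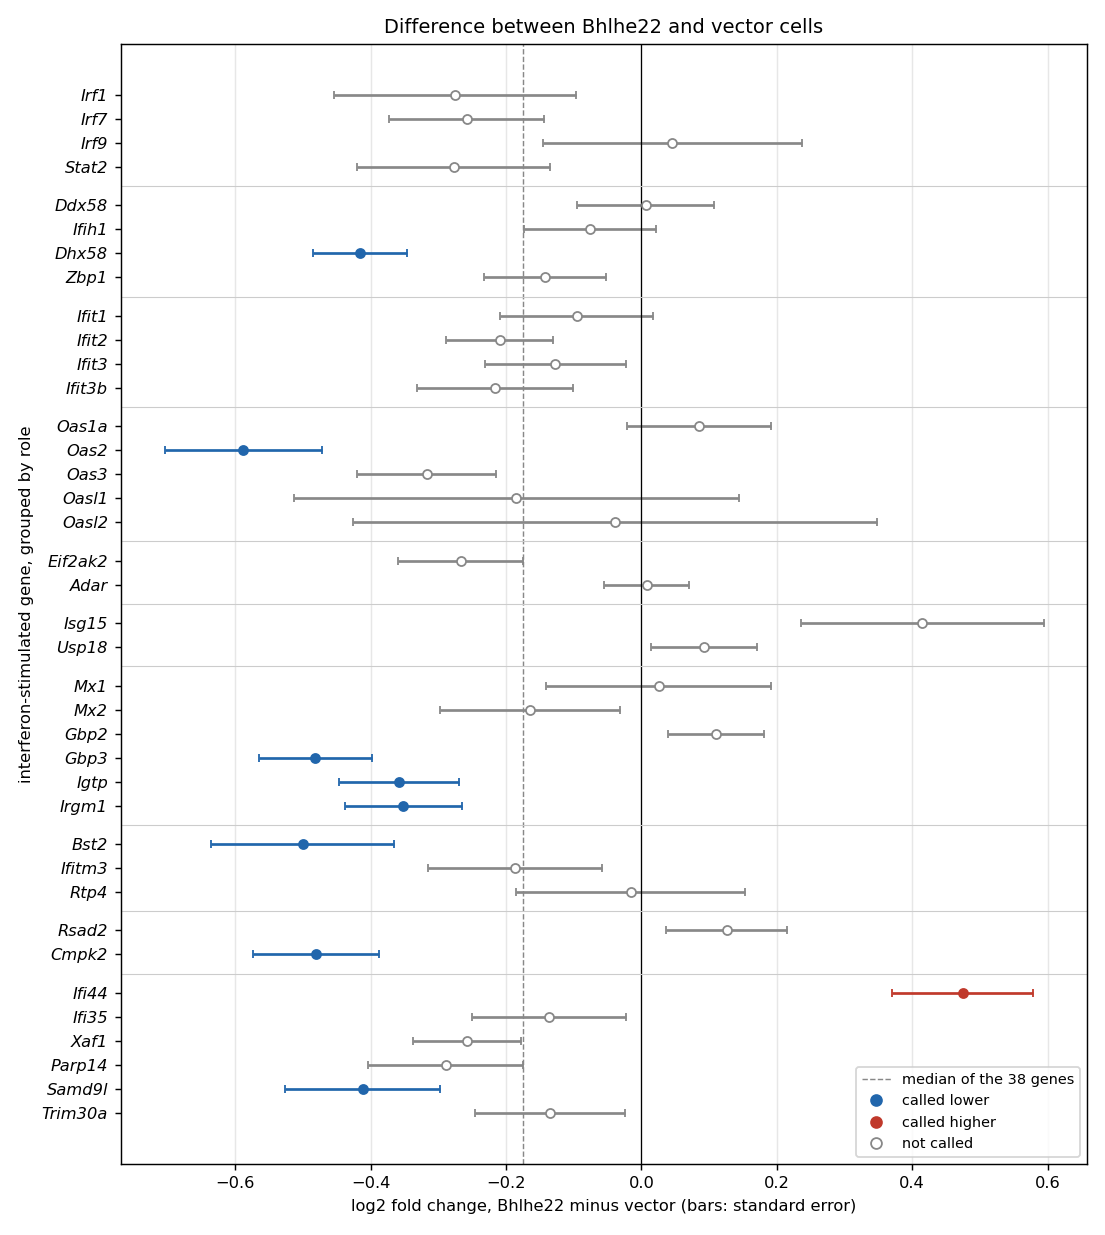
Log2 fold change (Bhlhe22 minus vector, horizontal axis) of each of the 38 interferon-stimulated genes, grouped by role, with bars for the standard error, filled points for genes that passed the test and a dashed line at the median. The 8 genes that fell lie between -0.59 and -0.35, Ifi44 lies at 0.47, and the median is -0.175.

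The transcription factors of the response did not pass the test. Irf7, which drives later waves of interferon production, was at 64.4, 60.9 and 59.8 CPM in vector replicates 1 to 3 and at 60.4, 48.5 and 45.9 CPM in Bhlhe22 replicates 1 to 3. The groups overlapped through Bhlhe22 replicate 1, and the log2 fold change was -0.26 (edgeR adjusted p = 0.164). Without Bhlhe22 replicate 1 it was -0.39 (adjusted p = 0.00291). Stat2, the part of ISGF3 that carries its activation domain, was at 64.8, 69.8 and 67.8 CPM in vector and 43.2, 61.9 and 61.7 CPM in Bhlhe22 libraries. These groups did not overlap, with Bhlhe22 replicate 1 well below the rest, yet the difference of -0.28 did not pass the test (adjusted p = 0.222). Without that library the Stat2 difference was smaller, at -0.134 (edgeR adjusted p = 0.12). Irf1 and Irf9, an activator of its own and the DNA-binding part of ISGF3, had overlapping groups (log2 fold changes -0.28 and 0.05, adjusted p = 0.33 and 0.903).

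Of the 4 sensors of foreign nucleic acid, Dhx58 fell and the other 3 did not pass the test. Dhx58 (chr11:100694884-100704271, minus strand, 13 exons after merging its transcripts) encodes LGP2, a relative of the RNA sensors RIG-I and MDA5 that has no signalling domain of its own. It was at 62.6, 64.8 and 64.9 CPM in vector and 49.5, 47.3 and 47.4 CPM in Bhlhe22 libraries. Each group was tight and they did not overlap. The log2 fold change was -0.42 ± 0.07 (SE, edgeR adjusted p = 0.00713). It stayed below the threshold when each of the 6 libraries was left out in turn, with an adjusted p of at most 0.0408. Ddx58, which encodes RIG-I, was at 216, 251 and 228 CPM and at 205, 238 and 255 CPM, with overlapping groups and a log2 fold change of 0.01 (adjusted p = 0.976). Ifih1, which encodes MDA5, also had overlapping groups (log2 fold change -0.08, adjusted p = 0.64). Zbp1, a sensor of Z-form nucleic acid that can trigger necroptosis, did not overlap between groups but did not pass the test (-0.14, adjusted p = 0.319).

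The 4 IFIT genes, of a family in which some proteins bind foreign RNA and block its translation, had log2 fold changes below 0. Their median was -0.17, and none passed the test. Ifit2 was at 26.8, 27.5 and 26.4 CPM in vector and 24.2, 23 and 22.6 CPM in Bhlhe22 libraries. Its groups did not overlap, and the log2 fold change was -0.21 (edgeR adjusted p = 0.108, and 0.0444 without Bhlhe22 replicate 1). Ifit1 was at 45.4, 46.2 and 42.9 CPM and at 36.2, 41.5 and 47.9 CPM, so the Bhlhe22 libraries lay on both sides of the vector libraries (adjusted p = 0.609). Ifit3 was at 62.7, 64.3 and 63.4 CPM and at 66.3, 51.2 and 56.9 CPM, with Bhlhe22 replicate 1 the highest of all (adjusted p = 0.441, and 0.0294 without it). Ifit3 and Ifit3b are near copies. Of the 50-base stretches of Ifit3 exons 51.2% also occur in another gene, mainly Ifit3b, and of those of Ifit3b 45.0% do, so the split of counts between them is uncertain.

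Of the 5 OAS genes, whose products sense double-stranded RNA and mostly make the activator of RNase L, Oas2 fell. Oas2 (chr5:120730333-120749853, minus strand, 12 exons) was at 30.6, 36.0 and 28.2 CPM in vector and 19.7, 20.6 and 22.6 CPM in Bhlhe22 libraries. The groups did not overlap, and the log2 fold change of -0.59 ± 0.12 (SE) was the lowest of the 38 (edgeR adjusted p = 0.0136). Its adjusted p was at most 0.0539 in the fits without vector replicate 1 or Bhlhe22 replicate 2, where it just missed the threshold, and it passed without each of the other 4. Oas3, which lies 3244 bases from Oas2, was at 273, 292 and 279 CPM and at 193, 232 and 251 CPM. Its groups did not overlap but the change of -0.32 did not pass (adjusted p = 0.0716). Oas3 passed with the length trend removed (-0.308, adjusted p = 0.012). Without Bhlhe22 replicate 1 it also passed (adjusted p = 0.016), though its change was smaller, at -0.224.

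Oasl1 and Oasl2, relatives of the OAS enzymes, varied between libraries of 1 group more than the groups differed. Oasl1 was at 98.0, 175 and 99.9 CPM in vector and 82.6, 85.9 and 159 CPM in Bhlhe22 libraries (edgeR adjusted p = 0.747). Oasl2 was at 111, 202 and 112 CPM and at 69.6, 168 and 175 CPM (adjusted p = 0.962). Vector replicate 2 was high in both genes, while Bhlhe22 replicate 2 was high in Oasl2 and not in Oasl1. The ratio of Oasl1 to Oasl2 was 0.883, 0.869 and 0.891 in the vector libraries but 1.19, 0.511 and 0.909 in the Bhlhe22 libraries. Oas1a had a log2 fold change of 0.09 (adjusted p = 0.626), and 57.6% of its 50-base stretches are shared with other Oas1 genes, Oas1g and Oas1b. Oas1g was higher in Bhlhe22 libraries (0.40, edgeR adjusted p = 0.0177), and Oas1b did not pass the test (0.27, adjusted p = 0.0778). The split of counts among these genes is uncertain.

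The double-stranded RNA binding enzymes did not pass the test. Eif2ak2, which encodes the kinase PKR that halts translation, was at 164, 183 and 163 CPM in vector and 128, 141 and 154 CPM in Bhlhe22 libraries. The groups did not overlap (log2 fold change -0.27, edgeR adjusted p = 0.0853, and 0.0373 with the length trend removed). Adar, which edits adenosine to inosine in double-stranded RNA and keeps cellular RNA from being sensed, was at 197, 185 and 194 CPM and at 189.6, 198 and 192 CPM, with a log2 fold change of 0.01 (adjusted p = 0.949).

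Isg15, a ubiquitin-like protein attached to other proteins during the response, was at 119, 104 and 126 CPM in vector and 200.1, 144 and 123 CPM in Bhlhe22 libraries. Bhlhe22 replicate 1 was far above the others and replicate 3 lay within the vector range. The log2 fold change of 0.41 ± 0.18 (SE) did not pass the test (edgeR adjusted p = 0.155). It was 0.18 without Bhlhe22 replicate 1 (adjusted p = 0.233) and 0.39 with the length trend removed (adjusted p = 0.0382). Usp18, the protease that takes Isg15 off and also damps the receptor, overlapped between groups (log2 fold change 0.09, adjusted p = 0.456).

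The interferon-induced GTPases held 3 of the 8 genes that fell. Gbp3 (chr3:142560026-142573209, plus strand, 14 exons) encodes a guanylate-binding protein that acts at membranes of pathogens. It was at 56.0, 58.5 and 55.3 CPM in vector and 43.0, 37.4 and 41.2 CPM in Bhlhe22 libraries, without overlap. The log2 fold change was -0.48 ± 0.08 (SE, edgeR adjusted p = 0.00816), and its adjusted p stayed at or below 0.0445 whichever library was left out. Gbp2, of the same family and 47392 bases away, was at 43.7, 45.5 and 44.7 CPM and at 49.0, 47.3 and 48.2 CPM. Its groups did not overlap, but the log2 fold change of 0.11 did not pass the test (adjusted p = 0.325).

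Igtp and Irgm1 are immunity-related GTPases of the interferon response that act on vacuoles holding pathogens. Igtp (chr11:58199556-58207591, plus strand, 3 exons) was at 54.5, 56.9 and 57.2 CPM in vector and 48.0, 43.3 and 40.3 CPM in Bhlhe22 libraries, without overlap (log2 fold change -0.36 ± 0.09 SE, edgeR adjusted p = 0.03). It passed without Bhlhe22 replicate 1 (-0.43, adjusted p = 0.00195) and in no other fit without a library (adjusted p from 0.0793 to 0.106). Of its 50-base stretches 11.8% are shared with Irgm2, which overlaps its exons. Irgm1 (chr11:48861968-48871683, minus strand, 4 exons) was at 104, 107 and 99.9 CPM and at 74.1, 80.2 and 89.4 CPM, also without overlap (-0.35 ± 0.09 SE, adjusted p = 0.0294). Irgm1 passed without Bhlhe22 replicate 1, though with a smaller change (-0.297, adjusted p = 0.0113). It also passed without replicate 3 (0.0216), and missed without each of the others (0.0794 to 0.116). With the replicate number as a block, neither Igtp (adjusted p = 0.0746) nor Irgm1 (0.0628) passed. Mx1 and Mx2 overlapped between groups (log2 fold changes 0.03 and -0.16, adjusted p = 0.94 and 0.434).

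Of the 3 membrane and entry factors, Bst2 fell. Bst2 (chr8:71534255-71537456, minus strand, 5 exons) encodes tetherin, which holds budding virus at the cell surface. It was at 200.3, 206 and 209.9 CPM in vector and 179, 126 and 130.2 CPM in Bhlhe22 libraries. The groups did not overlap, although Bhlhe22 replicate 1 lay much nearer the vector libraries than replicates 2 and 3. The log2 fold change was -0.50 ± 0.14 (SE, edgeR adjusted p = 0.0413). Without Bhlhe22 replicate 1 it was -0.69 (adjusted p = 5.3e-05), and without any other library it did not pass (adjusted p from 0.102 to 0.129). Ifitm3 was at 656, 579 and 642 CPM and at 661, 501 and 486 CPM, overlapping through the same library (log2 fold change -0.19, adjusted p = 0.358). Without Bhlhe22 replicate 1 its change was -0.35 (adjusted p = 0.00348). Rtp4, a chaperone of membrane receptors, had a log2 fold change of -0.02 (adjusted p = 0.965).

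Cmpk2 and Rsad2 are neighbouring genes of antiviral nucleotide chemistry. Viperin, the product of Rsad2, turns CTP into a chain terminator, and Cmpk2 phosphorylates pyrimidine nucleotides. They lie 12751 bases apart on chromosome 12, on opposite strands. Cmpk2 (chr12:26469204-26479837, plus strand, 5 exons) was at 99.0, 105 and 94.1 CPM in vector and 63.7, 72.1 and 77.6 CPM in Bhlhe22 libraries, and fell by 0.48 ± 0.09 (SE) in log2 CPM (edgeR adjusted p = 0.0125). It missed the threshold without vector replicate 1 or 2 (adjusted p = 0.0585 and 0.0613) and passed in the other 4 fits. Rsad2 was at 163, 172 and 159 CPM and at 160.3, 184 and 196 CPM, with overlapping groups and a log2 fold change of 0.13 (adjusted p = 0.376). The ratio of Cmpk2 to Rsad2 within a library was 0.606, 0.609 and 0.591 in vector and 0.397, 0.393 and 0.395 in Bhlhe22 libraries, a log2 difference of -0.61. This ratio varied less within a group than either gene did on its own, and the groups did not overlap.

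**Figure D4:**
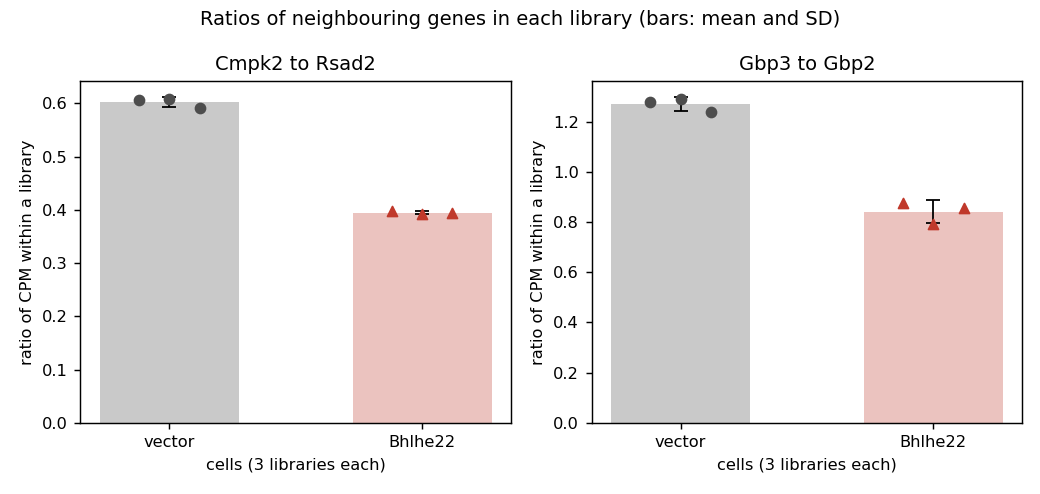
Ratio of CPM within a library (vertical axis) of Cmpk2 to Rsad2 (left panel) and of Gbp3 to Gbp2 (right panel), with a point for each of 3 vector and 3 Bhlhe22 libraries, a bar for the mean and an error bar for the SD. The groups do not overlap in either panel, with means of 0.602 and 0.395 for Cmpk2 to Rsad2 and 1.27 and 0.842 for Gbp3 to Gbp2.

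In all, 7 pairs of neighbours or relatives were compared in this way, picked with their values known. The ratio of Gbp3 to Gbp2 was 1.28, 1.29 and 1.24 in vector and 0.877, 0.792 and 0.856 in Bhlhe22 libraries, also without overlap (log2 difference -0.59). An exact two-sided permutation test gave p = 0.1 for both ratios, the smallest that 3 libraries against 3 allow, and 0.35 after Benjamini-Hochberg adjustment over the 7 ratios. The other ratios overlapped between groups (exact permutation p from 0.2 to 1.0). Ifit3 to Ifit3b was 4.71 ± 0.286 in vector and 4.99 ± 0.45 in Bhlhe22 libraries (SD, n = 3). Igtp to Irgm1 was 0.543 ± 0.0266 and 0.546 ± 0.0981.

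Among the 6 other genes, Ifi44 rose and Samd9l fell. Ifi44 (chr3:151730922-151749960, minus strand, 6 exons), an interferon-induced gene found with microtubular aggregates and of little-known action, was at 151, 181 and 139 CPM in vector and 209.5, 224 and 221 CPM in Bhlhe22 libraries. The groups did not overlap, and the log2 fold change was 0.47 ± 0.10 (SE, edgeR adjusted p = 0.0196). It missed the threshold without vector replicate 1, vector replicate 3 or Bhlhe22 replicate 2 (adjusted p from 0.0666 to 0.0886). Samd9l (chr6:3372257-3399572, minus strand, 3 exons), an inhibitor of cell growth and of poxvirus translation, was at 62.6, 73.6 and 67.0 CPM and at 43.6, 53.7 and 55.4 CPM, without overlap. Its log2 fold change was -0.41 ± 0.11 (SE, adjusted p = 0.0454). Samd9l passed without Bhlhe22 replicate 1, though with a smaller change (-0.319, adjusted p = 0.0168). It missed without each of the other libraries (0.0513 to 0.154). Xaf1, a promoter of apoptosis, was at 62.6, 57.5 and 59.0 CPM and at 52.8, 47.1 and 49.9 CPM (log2 fold change -0.26, adjusted p = 0.064, and 0.0106 without Bhlhe22 replicate 1). With the length trend removed Xaf1 also passed (adjusted p = 0.0433). Parp14, an ADP-ribosyltransferase, had a log2 fold change of -0.29 (adjusted p = 0.125, and 0.021 with the length trend removed). Ifi35 (-0.14, adjusted p = 0.448) and Trim30a (-0.13, adjusted p = 0.445) overlapped between groups. Without Bhlhe22 replicate 1 the log2 fold change of Ifi35 was -0.27 (adjusted p = 0.00971).

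Leaving out single libraries changed the number of genes called. Without vector replicate 1, 2 or 3 there were 2, 3 and 4 lower genes, and without Bhlhe22 replicate 2 or 3 there were 3 and 7. The shares were near that of all genes without vector replicate 1 (5.26% of the 38 against 4.25%), vector replicate 2 (7.89% against 4.54%) and Bhlhe22 replicate 2 (7.89% against 5.37%). They were 10.5% against 4.6% without vector replicate 3 and 18.4% against 7.01% without Bhlhe22 replicate 3. Without Bhlhe22 replicate 1 there were 15 lower genes (39.5%) and 2 higher ones, against 15.6% of all genes lower and 15.7% higher in the same fit. The lower genes gained were Ifi35, Ifit2, Ifit3, Ifitm3, Irf7, Oas3 and Xaf1, and the higher gene gained was Rsad2 (log2 fold change 0.20, edgeR adjusted p = 0.0315). All 8 genes of the full fit were among the 15. Compared with the full fit, the fall was larger for Dhx58, Gbp3, Igtp and Bst2. It was smaller for Oas2, Irgm1, Cmpk2 and Samd9l. With the length trend removed, 12 genes were lower (31.6%, against 12.7% of all genes) and 2 were higher (also against 12.7% of all genes). Dhx58 and Gbp3 were the 2 genes that passed in all 6 fits without a library.

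**Figure D5:**
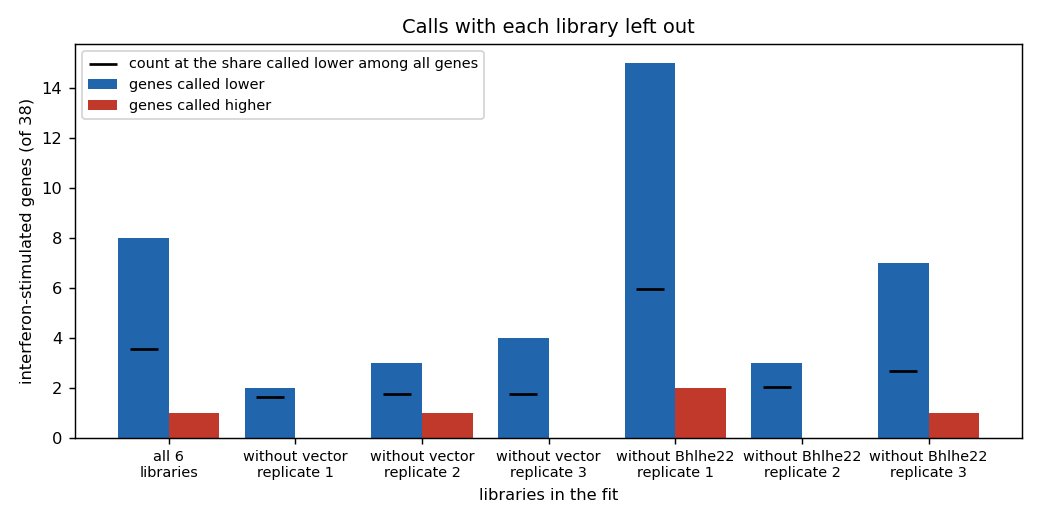
Number of the 38 interferon-stimulated genes called lower (blue bars) and higher (red bars) in the fit of all 6 libraries and in each fit without 1 library, with a black line at the number that the share called lower among all genes would give. The lower genes number 15 without Bhlhe22 replicate 1 and 2 to 7 without any other library.

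The genes upstream of the response were taken from lists of the pathway. Of 16 interferon and receptor genes 6 could be tested and none passed. Interferons were barely present: 8 of them, among them Ifna1, Ifna2, Ifna4, Ifna5 and Ifng, had 0 counts in all 6 libraries. Ifnb1 had 1, 2 and 2 counts in vector and 3, 2 and 9 counts in Bhlhe22 libraries, too few to test, and no fold is given. Ifnar1 was at 27.0, 22.8 and 23.8 CPM and at 26.9, 19.6 and 27.8 CPM, with overlapping groups (edgeR log2 fold change 0.01, adjusted p = 0.964). Ifnar2 had a log2 fold change of 0.07 (adjusted p = 0.738).

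Of 15 genes of JAK-STAT signalling and feedback, 2 fell (13.3%, near the 9.28% of all genes) and none rose. Ptpn6, the phosphatase SHP-1 that dampens JAK kinases, went from 28.5 ± 1.63 to 18.9 ± 1.28 CPM (SD, n = 3, log2 fold change -0.59, edgeR adjusted p = 0.00562) and passed in all 6 fits without a library. Socs3, a feedback inhibitor of cytokine receptors, went from 39 ± 2.98 to 28.5 ± 1.73 CPM (-0.45, adjusted p = 0.0161). It missed without vector replicate 1 or 3 (adjusted p from 0.0718 to 0.0759). The receptor kinases Jak1 (-0.15, adjusted p = 0.285) and Tyk2 (0.08, adjusted p = 0.654) did not pass the test.

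Of 18 genes of nucleic acid sensing and interferon induction 16 were tested, of which 1 fell (6.25%) and 2 rose (12.5%), shares near those of all genes (9.28% and 10.4%). Myd88, the adaptor of most Toll-like receptors, went from 49.5 ± 2.07 to 67.3 ± 3.61 CPM (SD, n = 3, log2 fold change 0.44, edgeR adjusted p = 0.00911) and passed in all 6 fits without a library. Ticam1, the adaptor TRIF, went from 41.2 ± 1.76 to 51.1 ± 1.03 CPM (0.31, adjusted p = 0.0276), and missed in each fit without a library other than Bhlhe22 replicate 1 (0.0627 to 0.118). Samhd1, which breaks down nucleotides, went from 121 ± 0.759 to 105 ± 2.81 CPM (-0.21, adjusted p = 0.048). It missed in the same 5 fits (0.0759 to 0.155), and with the length trend removed (0.101). Irf3, which switches on interferon genes, did not pass (0.07, adjusted p = 0.728).

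A list of 77 further interferon-stimulated genes, none of them among the 38, was set beside them. Of the 75 tested, 14 were lower (18.7%, against 9.28% of all genes) and 5 higher (6.67%, against 10.4%). The median log2 fold change was -0.17, against 0.01 over all genes. Slfn9, a Schlafen family gene, was at 107, 110.3 and 105 CPM in vector and 28.8, 49.9 and 53.5 CPM in Bhlhe22 libraries (log2 fold change -1.28, edgeR adjusted p = 0.00725). Of its 50-base stretches 11.5% are shared with other genes, among them Slfn8. Ifi30, a lysosomal thiol reductase of antigen processing, went from 19.9 ± 1.48 to 9.69 ± 1.68 CPM (SD, n = 3, -1.04, adjusted p = 0.00333). Ifitm1, a relative of Ifitm3, went from 117 ± 2.22 to 74.2 ± 8.32 CPM (-0.66, adjusted p = 0.00314).

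Other genes of that list moved in both directions. Mov10, an RNA helicase that restricts retroelements, went from 133 ± 9.85 to 84.1 ± 1.28 CPM (SD, n = 3, log2 fold change -0.66, edgeR adjusted p = 0.00154). Parp9, a partner in ADP-ribosylation of interferon signalling, went from 80.0 ± 0.305 to 57.1 ± 4.4 CPM (-0.49, adjusted p = 0.00652). Ifi27, a mitochondrial interferon-induced gene, rose from 185 ± 12 to 264 ± 19.1 CPM (0.51, adjusted p = 0.00642). All 6 of these genes, Slfn9, Ifi30, Ifitm1, Mov10, Parp9 and Ifi27, passed in each of the 6 fits without a library. Of the further genes 61 had a window, and 29 of these held an ISRE in it (47.5%, against 3.99% of all genes with a window).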

How the data were processed

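RNA-seq of 3 vector and 3 Bhlhe22 libraries of RM-1 cells was analysed. The authors deposited raw counts per gene and FPKM values in 1 table, per the file headers. CASAVA 1.8, HISAT2 2.1.0, StringTie 1.3.4b, edgeR and the GRCm38 build are named in the submitters' processing notes, without roles. For the annotation release and strand setting, the sources used here give nothing. Counts were tested with edgeR 4.0.16 in R 4.3.3 (TMM, filterByExpr with minimum count 10 and total 15, robust quasi-likelihood fit, Benjamini-Hochberg adjustment at 0.05), and the procedure was tested on simulated data. FPKM, as deposited, served for alternatives on log2(FPKM + 1) with limma 3.58.1. DESeq2 1.42.0 was another. Coordinates came from the deposited table, exons and shared 50-base stretches from GENCODE M21 (GRCm38), and promoters from RefSeq. Fits without each library, and one with a spline of 5 degrees of freedom on log2 exon length as offset, were added as alternatives, the latter after seeing the data. The 38 genes and all lists were chosen with earlier results of these data known. Named were all 38 genes, up to 6 called genes of lowest adjusted p per pathway list, and Ifnar1, Ifnar2, Jak1, Tyk2, Irf3, Ifnb1 and Cxcl10. Tlr4, Trim25 and Traf3 were added for their values in Bhlhe22 replicate 1, and Oas1g and Oas1b for the stretches they share with Oas1a. Some genes fixed for naming or as markers are not reported here.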

Additional observations from a re-analysis of the deposited data

How the results depend on the processing

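The 38 genes, the pathway lists and the named genes were refitted under 20 alternatives, of which 6 left out 1 library each. No called value changed sign. Of the 38 genes, 5 were lower (13.2%, against 3.94% of all genes) and 0 higher (against 3.7%) on log2(FPKM + 1) with no filter. With the length trend removed 2 of the 38 were higher, where 12.7% of all genes were. Leaving out a library gave 2 to 15 lower and 0 to 2 higher, with a median log2 fold change from -0.205 to -0.138. The median was -0.221 on log2(FPKM + 0.1). Leaving out a library gave 0 to 1 higher interferon and receptor genes, 1 to 2 lower and 0 to 1 higher JAK-STAT genes, 0 to 3 lower and 1 to 3 higher sensing genes, and 7 to 20 lower and 2 to 7 higher further genes. Over all genes the fits without a library called 4.25% to 15.6% lower and 4.8% to 15.7% higher. Higher JAK-STAT genes numbered 2 with DESeq2 and 1 with the length trend removed, where 11.9% and 12.7% of all genes were higher. Lower sensing genes numbered 0 with limma-voom and 0 with no filter, where 9.55% and 4.38% of all genes were lower. Higher further genes numbered 3 on log2(FPKM + 1) with no filter, where 3.7% of all genes were higher. With the replicate block, 6 of the 38 were lower (15.8%, against 6.77% of all genes) and 1 higher (against 7.41% of all genes). In that fit 1 JAK-STAT gene was lower, and 0 sensing genes were lower with 1 higher. Same-numbered libraries had residual correlations of 0.0293, 0.0214 and 0.0156, so the numbers were not taken to pair them, and no Bhlhe22 library correlated best with the vector library of its own number. The block gave 993 lower and 1086 higher genes in all. Over all genes 1361 were lower and 1520 higher, against 633 to 2337 and 715 to 2345 without a library and 976 higher on log2(FPKM + 1) with no filter. The causes were not tested. Ifnb1, at 1 to 9 counts per library, was too low to test at totals of 15464709 to 25129552 counts.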

Other observations

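Interferon-inducible chemokines and MHC class I genes are left out of the 38, and the lists were not tested against each other. Of 6 interferon-inducible chemokine genes 5 were tested and 3 fell (60.0%, against 9.28% of all genes). The median log2 fold change was -0.915, against 0.01 over all genes. Cxcl10, a ligand of Cxcr3 on T cells, was at 28.8, 28.6 and 29.5 CPM in vector and 15.3, 12.8 and 14.1 CPM in Bhlhe22 libraries (log2 fold change -1.04, edgeR adjusted p = 0.000682). Ccl2 and Ccl7, which draw monocytes, were the other genes that fell. Of 13 genes of MHC class I and peptide loading, Psmb9, Tap1 and Psmb10 fell (3 genes, 23.1%) and 2 rose, H2-M3 and H2-T23 (15.4%), against 9.28% and 10.4% of all genes. H2-M3, which presents formylated peptides, was at 50.9, 51.2 and 50.3 CPM in vector and 92.1, 81.9 and 81.5 CPM in Bhlhe22 libraries. Psmb10 passed without Bhlhe22 replicate 1 (adjusted p = 0.0028) and missed without each other library (0.101 to 0.158). H2-T23 passed in 2 of the 6 fits without a library (0.0526 to 0.118 in the other 4) and missed with the replicate block (0.0524). Tap1 passed in 3 of the 6 (0.0629 to 0.0697 in the others), and Psmb9 missed without vector replicate 3 (0.0566).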
